A study of Homo sapiens with 6 samples.

Results

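The genes described here encode amino acid transporters of the solute carrier (SLC) families. They were taken by name: every gene of the families SLC1, SLC3, SLC7, SLC36, SLC38 and SLC43, with SLC6A6, SLC6A9, SLC6A15 and SLC16A10 added from 2 larger families. The deposited tables listed 44 such genes among 26931 gene symbols, each on 1 row. A filter on low values (an FPKM of 1 or more in 2 libraries or more) left 30 of them, and 13043 genes in all, for testing. FPKM is a count of sequenced fragments scaled to transcript length and library size, so levels can be compared between genes. The rule itself used gene names and no measured value, but it was chosen with earlier results of these data known.

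RNA came from TC32, an established Ewing sarcoma cell line, 48 h after siRNA transfection. Ewing sarcoma cells usually carry a fusion of the RNA-binding protein gene EWSR1 with the ETS transcription factor gene FLI1. The 3 groups were TC32 cells given the control siNeg, siEWSR1 (directed at EWSR1) or siFLI1 (directed at FLI1), and each had 2 libraries. All 3 groups were transfected, and the labels do not say which stretch of each gene the siRNAs match or whether they were pools, so changes through other transcripts cannot be told apart from those through the named gene. TC32 is 1 cell line, so the results describe that line.

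EWSR1 averaged 46.8 FPKM with siNeg, 33.5 with siEWSR1 and 50.7 with siFLI1. For FLI1 the averages were 10.9, 10.5 and 8.77 FPKM. Each gene was thus lowest in the libraries of its own siRNA, although gene-level FPKM adds the normal transcripts to those of a fusion. Read from the width of the deposited intervals, the implied fragments summed to 15159073 to 16298374 per library. These sums are not measured library sizes, because interval width did not follow FPKM alone. For SLC1A4, FPKM went from 45.2 (siNeg replicate 1) to 14.6 (siEWSR1 replicate 1), while the implied fragments went from 1870 to 1214. Of 10 Ewing sarcoma markers, 8 passed the filter, while PAX7 and GLI1 reached at most 0.459 and 0.382 FPKM. Below the filter, PAX7 went from 0.439 FPKM on average to 0.170 and 0.199, and GLI1 from 0.143 to 0.302 and 0.191. All 8 fell with siEWSR1 (median log2 change -0.95) and 7 of 8 with siFLI1 (median -1.03), where 31% and 29.6% of all tested genes fell. With siEWSR1, CD99 went from 306 to 262 FPKM on average and NR0B1 from 219 to 62.5. Of 6 epithelial markers 2 passed the filter: KRT18 rose from 20.7 FPKM to 24.6 and 27.1, and ESRP1 fell from 1.82 to 0.073 and 0.0747, while EPCAM was at most 0.129. None of 5 blood and 4 endothelial markers passed it. PTPRC and VWF were at most 0.0118 and 0.00324 FPKM, CD3E was listed at 0, CD14 went from 0.167 FPKM to 0.471 and 0.354, and KDR from 0.152 to 0.616 and 0.491. The 5 fibroblast and mesenchyme markers summed to 44.3 and 43.9 FPKM with siNeg, 149 and 144 with siEWSR1, and 181.5 and 191 with siFLI1, of which COL1A1 made up most after either siRNA. COL1A1, COL1A2, PDGFRA and PDGFRB were higher with either siRNA. THY1, the highest of the 5 with siNeg, was called lower with both, from 23.9 FPKM on average to 17.3 and 16.1. The part of these marker shifts in the transporter results was not tested.

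Amino acid transporters set which amino acids a cell can import, exchange and release, and several are regulated by amino acid supply through the transcription factor ATF4. Some carriers work as 2-chain complexes, in which a heavy chain (SLC3A2 or SLC3A1) brings a light chain of the SLC7 family to the cell surface. The light chain forms the pore, and many light chains are exchangers that need another transporter to load the cell with the amino acid they trade. Others sit on the lysosome, where they release amino acids from degraded protein and take part in nutrient sensing by the kinase complex mTORC1.

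Transporter genes were spread over nearly the whole range of expression in siNeg cells. SLC38A2, which encodes a sodium-coupled importer of small neutral amino acids, was the highest at 164 and 154 FPKM, above 97.6% of the tested genes. SLC3A2 (123 and 115 FPKM), SLC1A5 (116 and 110 FPKM) and SLC7A5 (65.3 and 65.1 FPKM) followed, and SLC43A2 was the lowest that passed the filter, at 0.18 and 0.23 FPKM. The summed FPKM of all 44 genes was 754 and 722 with siNeg, 549 and 584 with siEWSR1, and 571.5 and 629.7 with siFLI1. SLC38A2 made up 21.7% and 21.3% of that sum with siNeg, 41.3% and 45.4% with siEWSR1, and 41.9% and 44.3% with siFLI1. In bulk RNA, fewer cells that express a gene and less RNA per cell cannot be told apart.

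**Figure D1:**
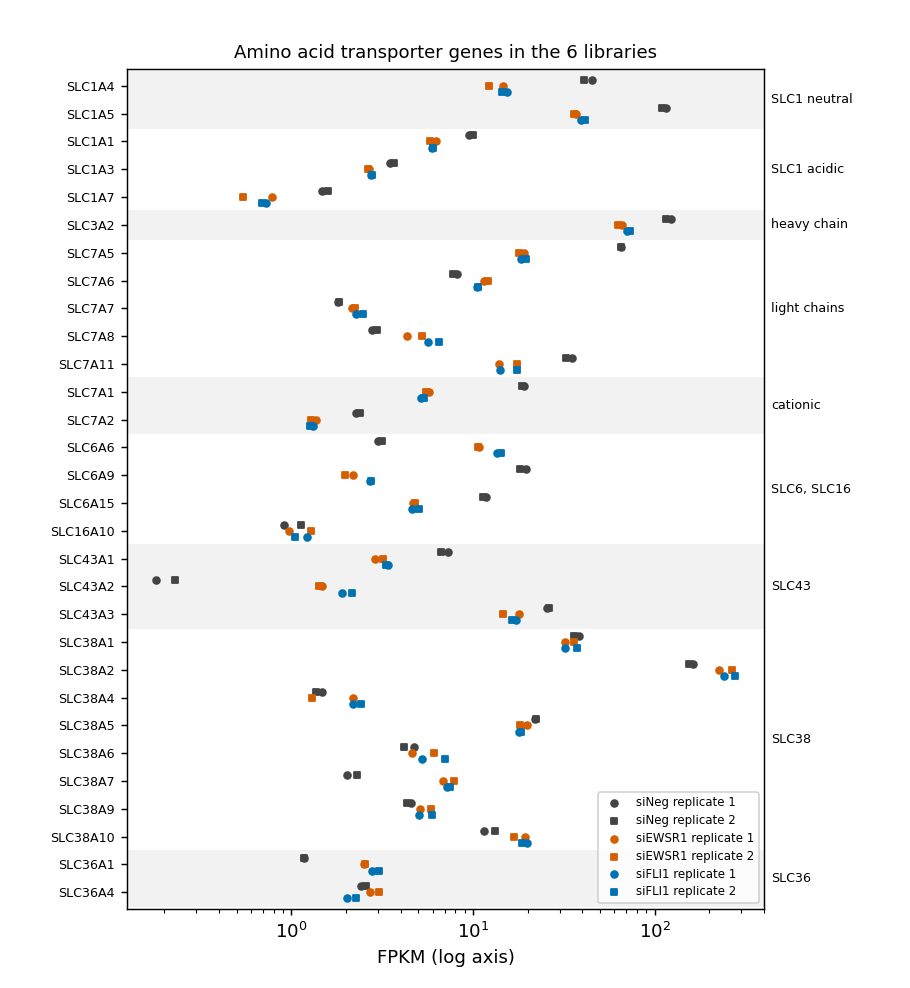
FPKM on a log axis (x) of the 30 transporter genes that passed the filter (y, grouped by role), with 1 point per library, circles for replicate 1 and squares for replicate 2. SLC38A2 is the highest gene in every library, and the siNeg points of SLC6A9, SLC1A5, SLC7A5 and SLC7A1 lie to the right of those of both siRNAs, while the siNeg points of SLC6A6, SLC38A7 and SLC43A2 lie to the left.

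With siEWSR1, 23 of the 30 transporter genes were called, of which 15 fell and 8 rose (limma on log2(FPKM + 0.5), Benjamini-Hochberg adjusted p under 0.05 over all tested genes). Among all 13043 tested genes 64.2% were called, 31% lower and 33.2% higher. With siFLI1, 15 fell and 10 rose, where 65.3% of all tested genes were called, 29.6% lower and 35.7% higher. The balance over all genes depended on the scaling: with siFLI1, 4656 were higher and 3861 lower, against 3888 and 4469 with quantile normalization and 4164 and 4453 with median centring. With siEWSR1 they were 4331 and 4041, against 3875 and 4230, and 4131 and 4391. The transporter counts were then 8 higher and 15 lower with siEWSR1 under both scalings, and with siFLI1 8 and 16 under quantile normalization and 10 and 15 under median centring. The median log2 change of the 30 genes was -0.17 with siEWSR1 and -0.23 with siFLI1, beside 0.007 and 0.041 over all tested genes. Falls of at least 2-fold numbered 8 with siEWSR1 and 7 with siFLI1, where 4.59% of all tested genes fell that far with each. Rises of at least 2-fold numbered 3 and 4, where 7.91% and 9.32% of all tested genes rose that far. SLC43A2, which is in both counts of rises, passed the filter only through the siRNA libraries. SLC1A7, among the genes called lower, passed it only through the siNeg libraries. The shares of all tested genes rest on the same filter. Both comparisons use the same siNeg libraries, so they are not independent, and fold changes here are on the log2(FPKM + 0.5) scale, which understates those of low genes.

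**Figure D2:**
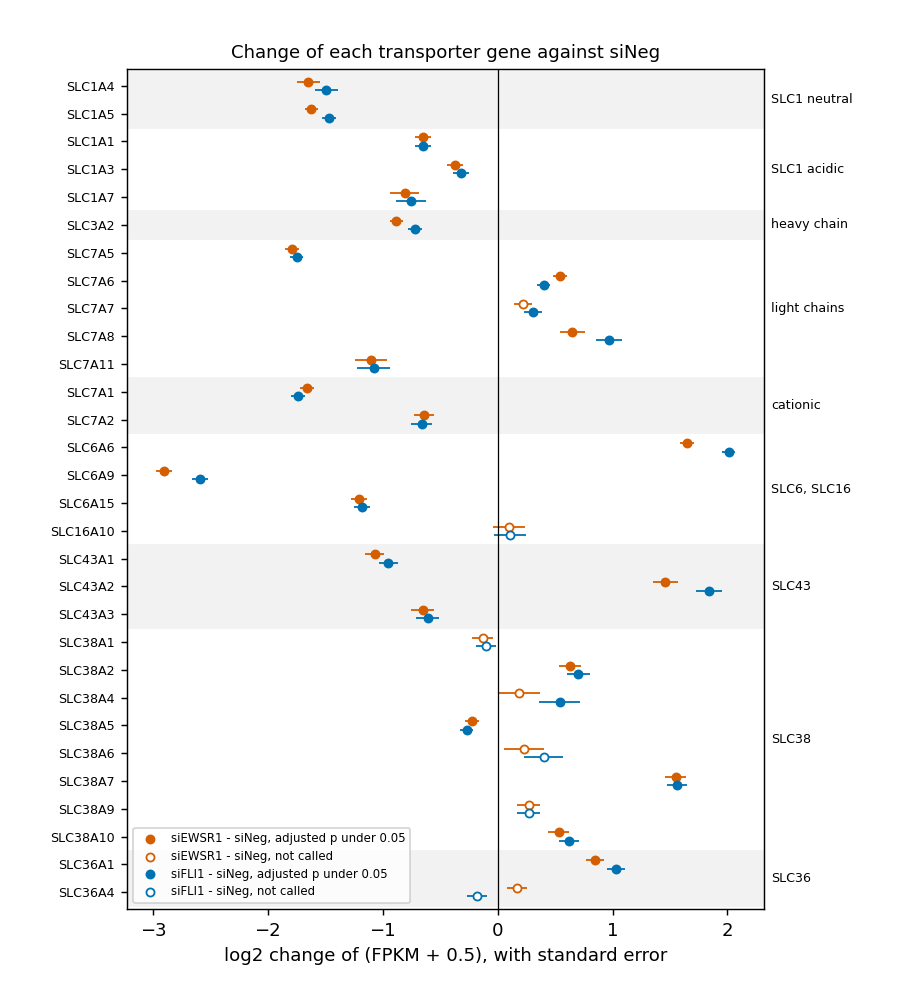
The log2 change of (FPKM + 0.5) against siNeg (x) for each of the 30 transporter genes (y, by role), in orange for siEWSR1 and blue for siFLI1, with standard errors as bars and filled points where the adjusted p was under 0.05. SLC6A9 lies farthest to the left, at -2.90 and -2.59, and SLC6A6 farthest to the right, at 1.65 and 2.01.

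Both neutral amino acid exchangers of the SLC1 family fell. SLC1A5 (hg19, chromosome 19, 47278140 to 47291842), the main glutamine exchanger of many proliferating cells, measured 116 and 110 FPKM with siNeg, 36.9 and 35.96 with siEWSR1, and 39.2 and 41.4 with siFLI1. SLC1A5 fell 3.07-fold with siEWSR1 (log2 change -1.62 ± 0.06, SE; limma adjusted p = 5.73e-06) and 2.78-fold with siFLI1 (-1.47 ± 0.06, adjusted p = 6.43e-06). SLC1A4 (chromosome 2, 65215579 to 65251000), an exchanger of alanine, serine and cysteine, measured 45.2 and 40.8 FPKM with siNeg, 14.6 and 12.2 with siEWSR1, and 15.3 and 14.5 with siFLI1. SLC1A4 fell 3.14-fold (adjusted p = 3.33e-05) and 2.82-fold (adjusted p = 4e-05). For both genes every knockdown library was below both siNeg libraries, by a wide margin.

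The heavy chain SLC3A2 and its light chains did not move as one. SLC3A2 (chromosome 11, 62623484 to 62656355) measured 123 and 115 FPKM with siNeg, 66 and 63.2 with siEWSR1, and 70.5 and 73.5 with siFLI1. SLC3A2 fell 1.84-fold with siEWSR1 (log2 change -0.88 ± 0.06, adjusted p = 4.94e-05, limma) and 1.65-fold with siFLI1 (-0.72 ± 0.06, adjusted p = 8.84e-05). The other heavy chain, SLC3A1, which serves cystine uptake in kidney and gut, was at most 0.0404 FPKM.

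SLC7A5 (chromosome 16, 87863629 to 87903100), the light chain that exchanges large neutral amino acids such as leucine, measured 65.3 and 65.1 FPKM with siNeg, 19.1 and 17.8 with siEWSR1, and 18.5 and 19.6 with siFLI1. SLC7A5 fell 3.47-fold (adjusted p = 5.33e-06) and 3.37-fold (adjusted p = 4.58e-06), more than its heavy chain in fold terms in either comparison. Its gene contains the microRNA gene MIR6775, and the pseudogene SLC7A5P2, with which reads may be shared, was at 2.78 and 3.02 FPKM with siNeg and 1.20 to 1.81 with the siRNAs. SLC7A11 (chromosome 4, 139085248 to 139163503), the light chain that imports cystine for glutathione synthesis in exchange for glutamate, measured 34.9 and 32.6 FPKM with siNeg, 13.8 and 17.4 with siEWSR1, and 14.1 and 17.5 with siFLI1. SLC7A11 fell 2.14-fold (-1.10 ± 0.14, adjusted p = 0.000621) and 2.11-fold (-1.08 ± 0.14, adjusted p = 0.000622). Its antisense partner SLC7A11-AS1, which overlaps it, went from 1.76 and 1.72 FPKM to between 0.34 and 0.51, and reads of the pair cannot be told apart without strand information.

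Other light chains of SLC3A2 went the opposite way. SLC7A6, which exchanges cationic for neutral amino acids, measured 8.13 and 7.71 FPKM with siNeg, 11.5 and 12.1 with siEWSR1, and 10.6 and 10.7 with siFLI1, and rose 1.46-fold (adjusted p = 0.000391) and 1.32-fold (adjusted p = 0.00135). It overlaps SLC7A6OS, which measured 5.97 to 6.998 FPKM in the 6 libraries. SLC7A8, a second carrier of large neutral amino acids, measured 2.76 and 2.94 FPKM with siNeg, 4.35 and 5.24 with siEWSR1, and 5.65 and 6.47 with siFLI1, and rose 1.57-fold (adjusted p = 0.00211) and 1.95-fold (adjusted p = 0.000361). SLC7A7, of the same exchange type as SLC7A6, measured 1.81 and 1.83 FPKM with siNeg, 2.15 and 2.24 with siEWSR1, and 2.28 and 2.47 with siFLI1. It was called higher with siFLI1 (0.31 ± 0.08, adjusted p = 0.015) and not with siEWSR1 (0.22 ± 0.08, adjusted p = 0.0566), and the difference between the siRNAs was itself not called (adjusted p = 0.532). With no variance trend in limma, the siEWSR1 change was called too (0.22, adjusted p = 0.0256). The siFLI1 call ended without siNeg replicate 1 (adjusted p = 0.0676), siNeg replicate 2 (0.0587) or siFLI1 replicate 2 (0.0789), and with quantile normalization the change was 0.03 (adjusted p = 0.788).

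The makeup of the light chain pool shifted accordingly. The 6 light chain genes of SLC3A2 summed to 113 and 110.3 FPKM with siNeg, 51.1 and 55.03 with siEWSR1, and 51.1 and 56.9 with siFLI1. SLC7A5 made up 57.8% and 59.0% of that sum with siNeg, 37.5% and 32.4% with siEWSR1, and 36.1% and 34.4% with siFLI1. SLC7A11's share was 29.5% and 30.9% with siNeg and 27.0% to 31.6% with the siRNAs, so its ranges overlapped. SLC7A6 went from 7.19% and 6.99% to between 18.7% and 22.4%, and SLC7A8 from 2.44% and 2.67% to between 8.51% and 11.4%. Light chain FPKM per SLC3A2 FPKM was 0.917 and 0.956 with siNeg, 0.774 and 0.871 with siEWSR1, and 0.725 and 0.774 with siFLI1. These shares and ratios are descriptions, with no test.

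**Figure D3:**
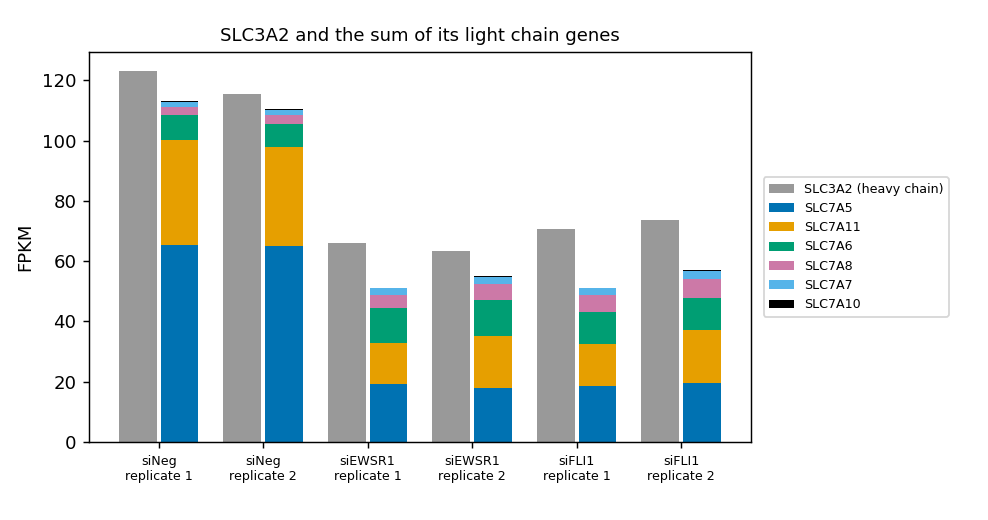
FPKM (y) in each library (x) of the heavy chain SLC3A2 (grey bars) and of its 6 light chain genes, stacked (coloured bars). The SLC7A5 segment shrinks from 65.3 and 65.1 FPKM with siNeg to between 17.8 and 19.6 with the siRNAs, while the SLC7A6 and SLC7A8 segments grow.

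Transporters of cationic amino acids that work without a heavy chain fell as well. SLC7A1 (chromosome 13, 30083551 to 30169825), the widely expressed carrier of arginine and lysine, measured 19.1 and 18.5 FPKM with siNeg, 5.71 and 5.52 with siEWSR1, and 5.16 and 5.40 with siFLI1. It fell 3.15-fold (-1.66 ± 0.06, limma adjusted p = 6.73e-06) and 3.34-fold (-1.74 ± 0.06, adjusted p = 4.72e-06). SLC7A2, an inducible carrier of the same substrates, measured 2.27 and 2.37 FPKM with siNeg and 1.27 to 1.36 with the siRNAs, falls of 1.55-fold (adjusted p = 0.000932) and 1.58-fold (adjusted p = 0.000754). SLC7A3, the third such carrier, stayed below the filter, at 0.95 and 0.79 FPKM with siNeg, 0.23 and 0.11 with siEWSR1, and 0.12 and 0.11 with siFLI1. With no filter on low values its log2 change was -1.04 (adjusted p = 0.0101) and -1.15 (adjusted p = 0.00739).

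The SLC6 members held both the deepest fall and the largest rise among the 30 genes. SLC6A9 (chromosome 1, 44462155 to 44497164), the glycine transporter first known from glia, measured 19.5 and 18.2 FPKM with siNeg, 2.19 and 1.98 with siEWSR1, and 2.70 and 2.73 with siFLI1. SLC6A9 fell 7.49-fold with siEWSR1 (-2.90 ± 0.07, adjusted p = 2.71e-06, limma) and 6.02-fold with siFLI1 (-2.59 ± 0.07, adjusted p = 2.76e-06). The overlapping gene CCDC24 was higher with the siRNAs, at 1.41 FPKM on average with siNeg, 3.44 with siEWSR1 and 3.64 with siFLI1. SLC6A15, a brain-enriched importer of branched-chain amino acids and proline, measured 11.9 and 11.4 FPKM with siNeg and 4.62 to 5.07 with the siRNAs, falls of 2.31-fold (adjusted p = 3.06e-05) and 2.27-fold (adjusted p = 2.64e-05).

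SLC6A6 (chromosome 3, 14444076 to 14530857), the importer of taurine and beta-alanine, went the other way. It measured 3.003 and 3.17 FPKM with siNeg, 10.8 and 10.7 with siEWSR1, and 13.6 and 14.3 with siFLI1. GRIP2 overlaps this gene. SLC6A6 rose 3.14-fold (1.65 ± 0.06, adjusted p = 7.73e-06) and 4.03-fold (2.01 ± 0.06, adjusted p = 3.3e-06), and every knockdown library was more than 3 times above the higher siNeg library. SLC16A10, a carrier of aromatic amino acids, was near 1 FPKM in all libraries (0.91 to 1.29), with overlapping groups and adjusted p = 0.556 and 0.528.

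Within the SLC43 family, members of close function split. SLC43A1 (chromosome 11, 57252004 to 57283192), a facilitator of branched-chain amino acids, measured 7.24 and 6.69 FPKM with siNeg, 2.90 and 3.21 with siEWSR1, and 3.41 and 3.31 with siFLI1, a fall of 2.10-fold (adjusted p = 7.66e-05) and 1.93-fold (adjusted p = 0.000105). SLC43A2 (chromosome 17, 1472548 to 1532180), a facilitator with overlapping substrates, measured 0.18 and 0.23 FPKM with siNeg, 1.47 and 1.42 with siEWSR1, and 1.89 and 2.17 with siFLI1. In the files, the authors' deposited intervals for SLC43A2 reached at most 0.288 FPKM with siNeg and began at 1.27 or above with the siRNAs. On the log2(FPKM + 0.5) scale it rose 2.76-fold (adjusted p = 7.65e-05) and 3.59-fold (adjusted p = 2.65e-05), and it passed the filter only through the siRNA libraries. SLC43A3, a neighbour of SLC43A1 on chromosome 11 (57174427 to 57195053) that is known as a purine nucleobase transporter despite its family, measured 25.4 and 26.3 FPKM with siNeg and 14.7 to 18.0 with the siRNAs, falls of 1.57-fold (adjusted p = 0.00128) and 1.52-fold (adjusted p = 0.00172).

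Of 8 sodium-coupled SLC38 genes that passed the filter, 3 rose and 1 fell with siEWSR1, and 4 rose and 1 fell with siFLI1, where 33.2% and 35.7% of all tested genes rose. SLC38A2 (chromosome 12, 46751971 to 46766645), introduced above as the highest gene, measured 164 and 154 FPKM with siNeg, 227 and 265 with siEWSR1, and 240 and 279 with siFLI1. It rose 1.55-fold (0.63 ± 0.10, limma adjusted p = 0.00192) and 1.63-fold (0.70 ± 0.10, adjusted p = 0.00112). SLC38A1, which lies next to it on chromosome 12 (46576840 to 46663208) and encodes a glutamine importer of the same transport system, measured 38.4 and 36.2 FPKM with siNeg and 32.1 to 37.5 with the siRNAs (-0.13 ± 0.09, adjusted p = 0.257, and -0.10 ± 0.09, adjusted p = 0.369). SLC38A4, the third of that cluster, measured 1.47 and 1.37 FPKM with siNeg, 2.18 and 1.30 with siEWSR1, and 2.18 and 2.42 with siFLI1. For siFLI1 the change was 0.54 ± 0.18 (adjusted p = 0.0381), a call that ended without siNeg replicate 1 (adjusted p = 0.102), siNeg replicate 2 (0.139), siFLI1 replicate 1 (0.0902) or siFLI1 replicate 2 (0.155), with no filter on low values (0.178) and with quantile normalization (0.344). With siEWSR1 it was 0.19 ± 0.18 (adjusted p = 0.387), or 0.48 (0.014) without siEWSR1 replicate 2.

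SLC38A7 (chromosome 16, 58699013 to 58718681), which exports glutamine from lysosomes, had the largest change of the family. It measured 2.03 and 2.29 FPKM with siNeg, 6.79 and 7.81 with siEWSR1, and 7.15 and 7.48 with siFLI1, rises of 2.93-fold (1.55 ± 0.09, adjusted p = 3.31e-05) and 2.94-fold (1.56 ± 0.09, adjusted p = 2.65e-05). SLC38A10, a less studied member, measured 11.5 and 13.2 FPKM with siNeg and 16.9 to 19.8 with the siRNAs, rises of 1.44-fold (adjusted p = 0.0029) and 1.54-fold (adjusted p = 0.00138). SLC38A9, the lysosomal arginine sensor of mTORC1, measured 4.57 and 4.36 FPKM with siNeg and 5.06 to 5.92 with the siRNAs and narrowly missed the threshold (0.27 ± 0.10 with each, adjusted p = 0.0506 and 0.0526). It was called higher with siEWSR1 without siEWSR1 replicate 1 (0.36, adjusted p = 0.0312), siFLI1 replicate 1 (0.0451) or siFLI1 replicate 2 (0.0461), and with siFLI1 without siFLI1 replicate 1 (0.37, adjusted p = 0.0362), siEWSR1 replicate 1 (0.0405) or siEWSR1 replicate 2 (0.0416). SLC38A5, an exchanger of glutamine and histidine, measured 21.9 and 22.3 FPKM with siNeg and 18.0 to 19.8 with the siRNAs, changes of -0.22 ± 0.06 (adjusted p = 0.0195) and -0.27 ± 0.06 (adjusted p = 0.00745). The siEWSR1 call on SLC38A5 ended without siNeg replicate 1 (adjusted p = 0.0715), siNeg replicate 2 (0.0933) or siEWSR1 replicate 2 (0.0801). SLC38A6, a family member found in brain, measured 4.17 to 4.75 FPKM with siNeg and 4.62 to 6.99 with the siRNAs (adjusted p = 0.264 and 0.0761). With siFLI1 it was called higher without siFLI1 replicate 1 (0.60, adjusted p = 0.0368), siEWSR1 replicate 1 (0.0428) or siEWSR1 replicate 2 (0.0438).

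Of the proton-coupled SLC36 genes, 2 passed the filter. SLC36A1 (chromosome 5, 150816553 to 150871942), which carries small amino acids out of lysosomes and is linked to mTORC1, measured 1.17 and 1.17 FPKM with siNeg, 2.51 and 2.53 with siEWSR1, and 2.78 and 3.05 with siFLI1, rises of 1.81-fold (adjusted p = 0.000233) and 2.04-fold (adjusted p = 9.45e-05). SLC36A4, a high-affinity carrier of proline and tryptophan, measured 2.41 and 2.59 FPKM with siNeg, 2.72 and 3.05 with siEWSR1, and 2.03 and 2.27 with siFLI1. Neither of its changes was called (0.17 ± 0.09, adjusted p = 0.150, and -0.18 ± 0.09, adjusted p = 0.136), although quantile normalization called it lower with siFLI1 (-0.44, adjusted p = 0.00946).

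The 3 glutamate and aspartate transporters that passed the filter fell too, by smaller amounts than SLC1A4 and SLC1A5, a contrast that was not tested. Over all tested genes 31% fell with siEWSR1 and 29.6% with siFLI1. SLC1A1, the neuronal and epithelial glutamate and cysteine importer, measured 9.55 and 9.95 FPKM with siNeg and 5.79 to 6.25 with the siRNAs, a fall of 1.57-fold with either (adjusted p = 0.000259 and 0.000228). SLC1A3, a glial glutamate transporter, measured 3.47 and 3.67 FPKM with siNeg and 2.62 to 2.77 with the siRNAs (-0.37 ± 0.07, adjusted p = 0.00441, and -0.32 ± 0.07, adjusted p = 0.00753, the second 0.0509 without siNeg replicate 2). SLC1A7, a retinal glutamate transporter, measured 1.48 and 1.58 FPKM with siNeg and 0.54 to 0.78 with the siRNAs (-0.81 ± 0.13, adjusted p = 0.0019, and -0.75 ± 0.13, adjusted p = 0.0026), and it passed the filter only through the siNeg libraries.

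The 14 genes below the filter stayed under 1 FPKM in every library, SLC7A3 being the highest of them. In 9 of them no library exceeded 0.069 FPKM, and SLC1A6 and SLC7A13 were listed at 0 in all libraries. Besides SLC7A3, those above 0.1 FPKM in some library were SLC7A9, SLC7A10, SLC7A14 and SLC38A3, at 0.257, 0.284, 0.13 and 0.285 FPKM at most. SLC7A14, a lysosomal member of the cationic branch, was listed at 0 with siNeg, at 0.024 and 0.022 FPKM with siEWSR1 and at 0.111 and 0.13 with siFLI1. With no filter, SLC7A14 was called higher with siFLI1 (0.31, limma adjusted p = 0.0021) and lower with siEWSR1 than with siFLI1 (-0.25, adjusted p = 0.0329). SLC7A9 was then called higher with siEWSR1 (0.43, adjusted p = 0.0475) and SLC38A3 with siFLI1 (0.43, adjusted p = 0.0477).

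A set of 9 transporter genes known from the literature as ATF4 or amino acid response genes held most of the deep falls. Of its 8 members that passed the filter, 7 fell and 1 rose with each siRNA (31% and 29.6% of all tested genes fell), with a median log2 change of -1.63 with siEWSR1 and -1.48 with siFLI1. The 7 were SLC1A4, SLC1A5, SLC3A2, SLC6A9, SLC7A1, SLC7A5 and SLC7A11, and the one that rose was SLC38A2. The set was written down with earlier results on these samples known, so it is no independent evidence of direction. SLC6A15, SLC43A1 and SLC7A2 fell too and were not in it.

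ATF4 binds a composite element whose core can be written TGATGNAA (TTNCATCA on the other strand). Every transporter gene with an entry was searched for it in RefSeq promoter windows of GRCh38.p14. A window ran from 250 bases before to 50 bases after the RefSeq start listed for its gene. Other starts of a gene were not searched. Of the 30 genes, 25 had a window, and SLC6A6, SLC6A15, SLC7A2, SLC7A11 and SLC43A3 did not. The core was in 4 of the 25, namely SLC1A3, SLC3A2, SLC7A1 and SLC38A1, beside 1.92% of the windows of tested genes and 3.62% of all 35116 windows. Of the 11 genes with a window that fell with siEWSR1, 3 held it, as did 0 of 7 that rose and 1 of 7 that were not called. In the ATF4 set, the windows of SLC1A4, SLC1A5, SLC6A9 and SLC7A5, which fell, and of SLC38A2, which rose, lacked the core. SLC7A1 and SLC3A2 are shown because both fell and belong to the ATF4 set. SLC1A3 is shown because it fell and does not belong to it, and SLC38A1 because it was not called. Each window is written 5′ to 3′ on the strand of its gene, with the core in capitals:
SLC7A1, chr13:29595639-29595938, minus strand: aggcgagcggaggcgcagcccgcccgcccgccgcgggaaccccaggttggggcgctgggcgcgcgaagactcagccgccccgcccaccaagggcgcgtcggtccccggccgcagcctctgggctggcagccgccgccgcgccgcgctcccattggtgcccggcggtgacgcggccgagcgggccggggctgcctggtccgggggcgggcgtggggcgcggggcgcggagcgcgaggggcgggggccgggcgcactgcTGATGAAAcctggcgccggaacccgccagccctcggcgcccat
SLC3A2, chr11:62881449-62881748, plus strand: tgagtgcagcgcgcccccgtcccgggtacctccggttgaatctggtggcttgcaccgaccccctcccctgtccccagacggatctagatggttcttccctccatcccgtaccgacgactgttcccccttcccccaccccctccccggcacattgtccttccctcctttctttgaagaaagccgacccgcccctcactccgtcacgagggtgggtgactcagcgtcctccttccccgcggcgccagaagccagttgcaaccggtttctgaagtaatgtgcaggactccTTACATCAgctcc
SLC1A3, chr5:36596338-36596637, plus strand: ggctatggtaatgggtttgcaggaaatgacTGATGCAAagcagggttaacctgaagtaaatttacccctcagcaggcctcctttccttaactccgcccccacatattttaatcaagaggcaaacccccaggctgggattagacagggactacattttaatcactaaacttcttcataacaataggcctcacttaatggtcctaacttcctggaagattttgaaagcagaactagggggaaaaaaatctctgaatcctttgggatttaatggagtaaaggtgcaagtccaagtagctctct
SLC38A1, chr12:46266467-46266766, minus strand: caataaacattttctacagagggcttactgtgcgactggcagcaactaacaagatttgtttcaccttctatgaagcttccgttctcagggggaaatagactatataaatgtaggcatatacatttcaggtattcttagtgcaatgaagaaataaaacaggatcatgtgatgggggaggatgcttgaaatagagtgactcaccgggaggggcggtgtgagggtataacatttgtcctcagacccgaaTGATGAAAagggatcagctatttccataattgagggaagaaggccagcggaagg

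Counted from the RefSeq start of each window, the core began 8 and 38 bases into the transcript in SLC7A1 and SLC3A2. In SLC1A3 and SLC38A1 it began at positions -220 and -4. The first transcript bases of the SLC1A3, SLC38A1 and SLC1A7 windows were not found in a GENCODE transcript, so positions in these 3 are counted from the RefSeq start alone. A pair of adjacent ETS cores, GGAAGGAA (TTCCTTCC on the other strand), was in 1 of the 25 windows, that of SLC1A7 at positions -180 and -130, beside 3.45% of windows of tested genes. These matches describe letters in these windows and do not show binding.

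Compared directly, siEWSR1 and siFLI1 differed at 1 of the 30 transporter genes, while 3.86% of all tested genes did: 0.79% were higher and 3.07% lower with siEWSR1. That split of all genes, 103 higher and 401 lower, was 209 and 343 with quantile normalization and 153 and 346 with median centring. The gene was SLC6A6, lower with siEWSR1 (10.8 and 10.7 FPKM) than with siFLI1 (13.6 and 14.3 FPKM) by 0.36 ± 0.06 on the log2 scale (limma adjusted p = 0.0368). That call ended without any 1 of the 6 libraries (siNeg replicate 1, 0.0818, and replicate 2, 0.0818; siEWSR1 replicate 1, 0.061, and replicate 2, 0.123; siFLI1 replicate 1, 0.132, and replicate 2, 0.227) and with the replicate number as a block (0.059), while the difference stayed between -0.33 and -0.40. With no filter on low values SLC6A6 was not called (0.084), and the 1 gene called was SLC7A14. SLC6A9 was 2.19 and 1.98 FPKM with siEWSR1 and 2.70 and 2.73 with siFLI1 (-0.32 ± 0.07, adjusted p = 0.0702). SLC43A2 (-0.38 ± 0.11, adjusted p = 0.104), SLC36A4 (0.35 ± 0.09, adjusted p = 0.0909) and SLC7A8 (-0.31 ± 0.11, adjusted p = 0.155) also missed the threshold. SLC38A4 (-0.35 ± 0.18, adjusted p = 0.311) was called at -0.64 (adjusted p = 0.0473) without siEWSR1 replicate 1. At an unadjusted p under 0.05, 7 of the 30 genes and 3054 of 13043 tested genes differed.

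**Figure D4:**
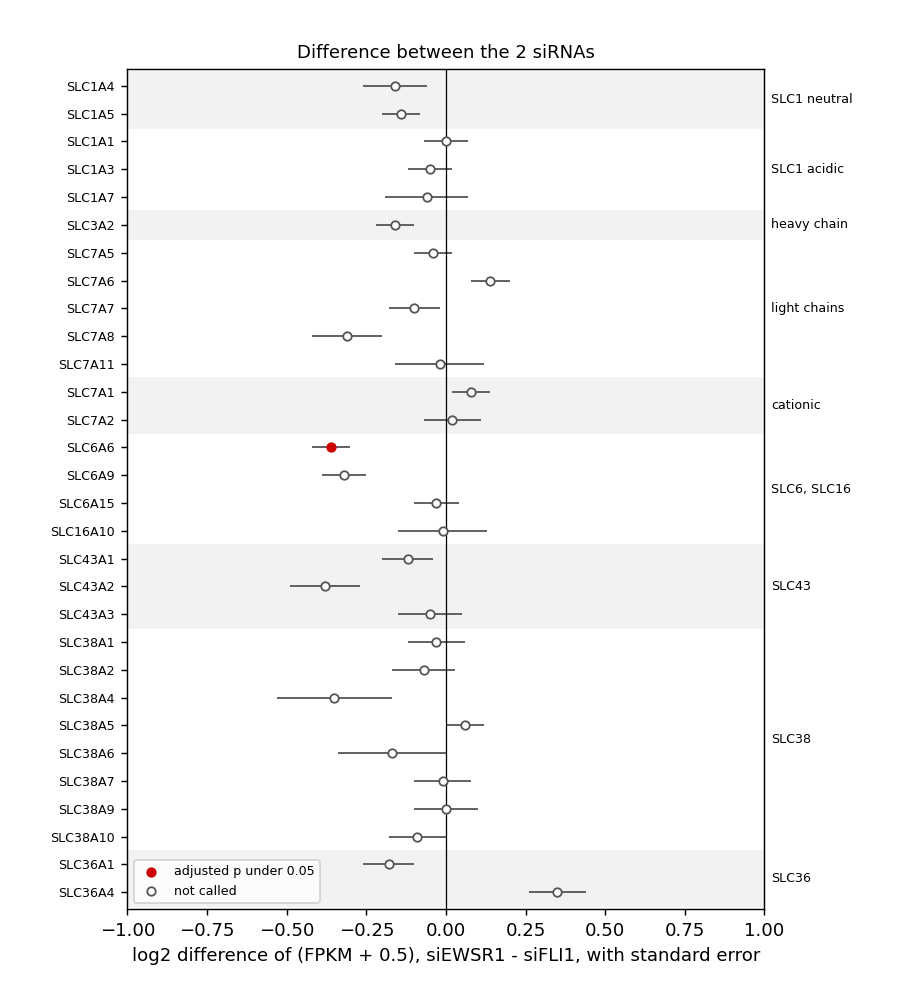
The log2 difference of (FPKM + 0.5) between siEWSR1 and siFLI1 (x) for each of the 30 transporter genes (y, by role), with standard errors as bars and SLC6A6 filled in red as the gene with an adjusted p under 0.05. All 30 points lie within 0.4 of 0, and SLC6A6 lies at -0.36.

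Genes that share pathways with these transporters were read from 3 further lists. Of 17 other amino acid carriers tested, 9 rose and 3 fell with siEWSR1 and 11 rose and 3 fell with siFLI1 (median 0.35 in each comparison). Over all tested genes 33.2% rose and 31% fell with siEWSR1, and 35.7% and 29.6% with siFLI1. SLC25A18, a mitochondrial glutamate carrier, went from 0.194 FPKM on average with siNeg to 1.32 and 1.38 (1.39 and 1.43 on the log2 scale), and passed the filter only through the siRNA libraries. CTNS, the lysosomal cystine exporter, went from 1.66 to 3.80 and 4.49 FPKM (0.99 and 1.21), and SFXN3, a mitochondrial serine carrier, from 5.74 to 10.2 and 11.97 FPKM (0.78 and 1.00). The 3 that fell were SFXN1, the main mitochondrial serine carrier (-0.63 and -0.56), SLC6A8, a creatine transporter (-0.45 and -0.42), and SLC25A15, a mitochondrial ornithine carrier (-0.37 and -0.40). The count of 3 dropped to 1 without siNeg replicate 2 for either siRNA, without siEWSR1 replicate 2 for siEWSR1 and without siFLI1 replicate 1 for siFLI1. With no filter on low values the siEWSR1 calls on all 3 ended (limma adjusted p = 0.053 for SFXN1, 0.178 for SLC6A8 and 0.0543 for SLC25A15), as did the siFLI1 calls on SFXN1 (0.0682) and SLC6A8 (0.205).

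Of 34 tested genes of amino acid sensing by mTORC1, 13 rose and 12 fell with siEWSR1 (median 0.01) and 13 rose and 9 fell with siFLI1 (median -0.01), shares near the 33.2% and 31%, and 35.7% and 29.6%, of all tested genes. The sestrins, which restrain mTORC1 and of which SESN2 is a leucine sensor and ATF4 target, split: SESN2 went from 29 FPKM on average with siNeg to 10.0 and 9.76 (-1.49 and -1.52), while SESN3 went from 10.9 to 81.1 and 74.2 FPKM (2.83 and 2.70) and SESN1 from 1.05 to 4.74 and 3.14 (1.76 and 1.23). RRAGB, a Rag GTPase, rose by 1.41 and 1.20, and MIOS and C12orf66, of the sensing complexes upstream of the Rag GTPases, fell by 0.80 and 0.64 with siEWSR1 and by 0.81 and 0.51 with siFLI1. Between the siRNAs, 1 of the 34 was higher and 2 were lower with siEWSR1, where 0.79% and 3.07% of all tested genes were. SESN1 was the higher one (0.53, limma adjusted p = 0.0404). The SESN1 call ended with no filter on low values (0.146), with only the 2 groups compared (0.0843) and with the replicate number as a block (0.058). It also ended without any 1 of the 6 libraries, while the difference stayed between 0.44 and 0.62. GATSL3 (-0.45, adjusted p = 0.0471) and LAMTOR1 were lower. LAMTOR1, the lysosomal anchor of the Rag GTPases, was named after its values were seen: it measured 43.9 FPKM on average with siNeg, 34.3 with siEWSR1 (-0.35, adjusted p = 0.00307) and 63.7 with siFLI1 (0.53, adjusted p = 0.000471). The difference between the siRNAs at LAMTOR1 was called (adjusted p = 0.00442), a call that ended without siFLI1 replicate 2 (-0.84, adjusted p = 0.0745).

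Of 15 tested regulators of the amino acid response, 11 fell and 4 were not called with siEWSR1 (median -0.71), and 12 fell and 2 rose with siFLI1 (median -0.60), where 31% and 29.6% of all tested genes fell and 35.7% rose with siFLI1. ATF4 itself measured 275 FPKM on average with siNeg, 139 with siEWSR1 and 146 with siFLI1 (-0.99 and -0.91, limma adjusted p = 5.57e-05 and 6.33e-05). TRIB3, a pseudokinase induced by ATF4, fell by 3.55 and 3.45, and ATF5, a related factor, fell by 2.57 and 2.27. DDIT3, a stress-induced partner of ATF4, fell by 1.77 and 1.59, and CEBPG, another dimer partner, fell by 1.70 with either. The 2 that rose with siFLI1 were NUPR1, a stress-induced chromatin protein (1.14), and EIF2AK3, a kinase of the unfolded protein response (0.22, adjusted p = 0.0223, and 0.0687 to 0.0907 without either siNeg or either siFLI1 library). The EIF2AK3 call also ended with quantile normalization (0.10, adjusted p = 0.186) and when only genes at a mean FPKM of 5 or more were tested (0.0618). With siEWSR1, NUPR1 was at 0.32 (adjusted p = 0.096), at 0.50 without siNeg replicate 1, at 0.46 without siEWSR1 replicate 1 and called at 0.45 with quantile normalization (adjusted p = 0.0401). NUPR1 was also lower with siEWSR1 than with siFLI1 (-0.82, limma adjusted p = 0.0389). That call ended with no filter on low values (0.193), with quantile normalization (0.0519) and with no variance trend in limma (0.0518). It also ended with only the 2 groups compared (0.0579) and with the replicate number as a block (0.058). Without any 1 of the 6 libraries it ended too, while the difference stayed between -0.69 and -0.96.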

How the data were processed

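The deposited files, 1 per library, hold FPKM values that the authors computed per gene. The submitters' processing notes name TopHat2 2.0.13, Cufflinks, Cuffdiff and hg19; annotation, strand setting and library kit were not given in the sources used here. Gene starts are given counting from 1: 6149 of 23769 symbols had the RefSeq length if the files count from 0, and 579 if from 1. Rows of 1 symbol were summed. Genes passing the filter (13043) were tested on log2(FPKM + 0.5) by limma 3.58.1 (R 4.3.3) with a variance trend, in a single model of the 6 libraries with 3 residual and 3.39 prior degrees of freedom. P-values are two-sided, Benjamini-Hochberg adjusted over all tested genes, with a threshold of 0.05. The files give no fragment counts, so no count model was used.

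The transporter genes and lists were chosen with earlier results of these data known. Genes were ordered by role, and up to 3 called genes per direction and comparison with the largest change were named from the other lists, besides ATF4 and LAMTOR1. No label says that replicates came from separate cultures; the p-values reflect spread among these libraries, which may be technical. Promoter windows came from a RefSeq table of GRCh38.p14, matched by symbol (33 of 44), and no coordinate was carried between builds. In 17 of 25 windows the first transcript bases were found in a GENCODE transcript as written, and in 0 reversed.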

Additional observations from a re-analysis of the deposited data

How the results depend on the processing

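Alternatives were another pseudocount (0.1 or 1), no filter, a mean FPKM of at least 5, quantile normalization, median centring, no or a robust variance trend, only the 2 groups compared, the replicate number as a block, and each library left out in turn. No called transporter gene changed direction in any of them. With a mean FPKM of at least 5, where 19 transporter genes are tested, 5 were higher with siEWSR1 and 5 with siFLI1 in place of 8 and 10. Leaving out 1 library gave 8 to 9 higher and 14 to 15 lower with siEWSR1, 8 to 12 higher and 14 to 15 lower with siFLI1, and 0 to 1 lower between the siRNAs. The difference between the siRNAs at SLC6A6 also ended with only the 2 groups compared, which left 0 transporter genes lower (adjusted p = 0.0765), and with no filter (0.084), where SLC7A14 was called instead. With the replicate block 0 were lower between the siRNAs, and 9 and 11 were higher against siNeg. Same-numbered libraries shared only a number: their deviations from the group means correlated at -0.137 (siNeg and siEWSR1), -0.053 (siNeg and siFLI1) and 0.069 (siEWSR1 and siFLI1) across genes. Between the siRNAs, counts over all genes ranged from 3 to 85 higher and 2 to 508 lower when 1 library was left out, against 103 and 401, and were 66 and 136 with no filter, 12 and 99 with only the 2 groups, 57 and 262 with the block, and 185 and 640 with a robust trend. With a mean FPKM of at least 5, 2518 of all genes were higher with siEWSR1 and 2787 with siFLI1, against 4331 and 4656. SLC38A9 was also called higher against siNeg with a robust trend, with only the 2 groups compared and with the block. FPKM files give no counts, so precision at low levels could not be set from depth.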
